A study of Homo sapiens with 6 samples.

Results

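Expression of 10 genes of the mesenchymal cell state and of epithelial-mesenchymal transition (EMT) was followed in SK-N-BE(2), an established human neuroblastoma cell line with amplified MYCN, after knockdown of Prp19. The genes were taken by name: PRRX1, FOSL1, FOSL2, RUNX1, SNAI2, TWIST1, ZEB1, ZEB2, VIM and FN1. All 10 were found among the 58302 genes of each sample. FPKM are fragments per kilobase of exon, scaled by a library size for each sample. Of the 10, 8 belonged to the 14462 genes whose mean over the samples reached 1 FPKM, the level used for testing. PRRX1 and RUNX1 lay below that level. RNA-seq was available for 6 samples, 3 labelled NC (control siRNA) and 3 labelled siPrp19 (siRNA against Prp19), all from the same cell line and all with a labelled transfection of 72 h, where the methods of the study give a shorter time. The samples carried replicate numbers 1, 2 and 3 in each group, which the methods of the study call biological replicates. The labels do not say whether they were separate cultures, and the p-values measure only the spread between these samples.

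Neuroblastoma cells are known to occur in an adrenergic and in a mesenchymal state. Adrenergic cells express the sympathetic lineage factors PHOX2A, HAND2 and GATA3, while mesenchymal cells resemble neural crest derivatives and express PRRX1, AP-1 factors such as FOSL1 and FOSL2, RUNX1, vimentin and fibronectin. EMT is the loss of epithelial junctions and the gain of motility that the repressors of the SNAI, ZEB and TWIST families can set off, and the neural crest passes through such a transition during development. Prp19, encoded by PRPF19, is a ubiquitin ligase and a core part of a spliceosome complex, and the question addressed here was whether the expression of the mesenchymal and EMT genes differed when it was knocked down.

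The knockdown was checked first. PRPF19 was at 53.1, 53.1 and 64.9 FPKM in the NC samples and at 21.8, 28.5 and 33.6 FPKM in the siPrp19 samples, and the groups did not overlap. The reads on genes, recovered from the FPKM values, ranged from 19058781 to 21943936 in NC and from 22273025 to 24181789 in siPrp19. Every siPrp19 sample thus had more reads on genes than every NC sample. The deposited scaling did not follow these reads alone. By it 1 read at 1 kb was worth 0.0458 FPKM in NC replicate 1 and 0.0481 FPKM in siPrp19 replicate 2. Samples differed more by replicate number than by group: in a limma F test the replicate number was called at a false discovery rate (FDR) under 0.05 for 7175 genes (49.6% of those tested), while siPrp19 against NC was called for 0 genes (0%) by limma without pairing, with 225 at an unadjusted p under 0.05, and for 1012 genes when voom was run on the recovered reads and samples were blocked by number. The 3rd replicate stood apart in both groups for DBH, the enzyme that makes noradrenaline, with 3.49 and 3.94 FPKM against 26.7 to 44.2 FPKM in the other 4 samples.

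The neuroblastoma label of the line was checked against its lineage markers. All 13 adrenergic neuroblastoma markers passed 1 FPKM, led by MYCN (992 ± 161 FPKM in NC and 1040 ± 214 in siPrp19, SD, n = 3), PHOX2A (373 ± 80.6 and 392 ± 62.5), HAND2 (324 ± 42.8 and 310 ± 37.2) and TH (203 ± 49.3 and 192 ± 48.8). Their summed level ranged from 2270 to 2415 FPKM in NC and from 2170 to 2746 FPKM in siPrp19. Of 6 leukocyte markers, CD14, CSF1R and PTPRC among them, none reached a mean of 1 FPKM over the samples. The highest single value was 1.30 FPKM for CD14 in siPrp19 replicate 3. The summed levels of the list were 0.952 to 1.14 FPKM in NC and 0.845 to 1.63 in siPrp19. Of 6 Schwann cell markers the defining SOX10 and FOXD3 were listed at 0 in all 6 samples, and the list, S100B and ERBB3 included, summed to 1.91 to 3.32 FPKM in NC and 2.72 to 3.30 in siPrp19. Of 8 fibroblast markers 6 were above 1 FPKM, led by LUM, COL1A1, PDGFRB and COL3A1, with summed levels of 132.0 to 153.9 FPKM in NC and 122.3 to 150.2 in siPrp19, while COL1A2 stayed at or below 0.0453 FPKM. The part of other cells in the levels of the mesenchymal genes was not tested, and in bulk samples fewer cells of a kind and less RNA per cell cannot be told apart.

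The mesenchymal and EMT genes covered a wide range of levels per length. VIM was the highest (rank 141 of the 14462 genes by mean FPKM), followed by TWIST1 (rank 205), FN1 (831), FOSL2 (1502), SNAI2 (2324), ZEB1 (4033), FOSL1 (4775) and ZEB2 (9515), and then by PRRX1 and RUNX1 below 1 FPKM. From FN1 down to ZEB2 the sample values of each gene overlapped those of the next in this order, as did those of PRRX1 and RUNX1, while VIM, TWIST1 and FN1 did not overlap with one another, nor ZEB2 with PRRX1. The plot of the 10 genes by sample gives each value.

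**Figure D1:**
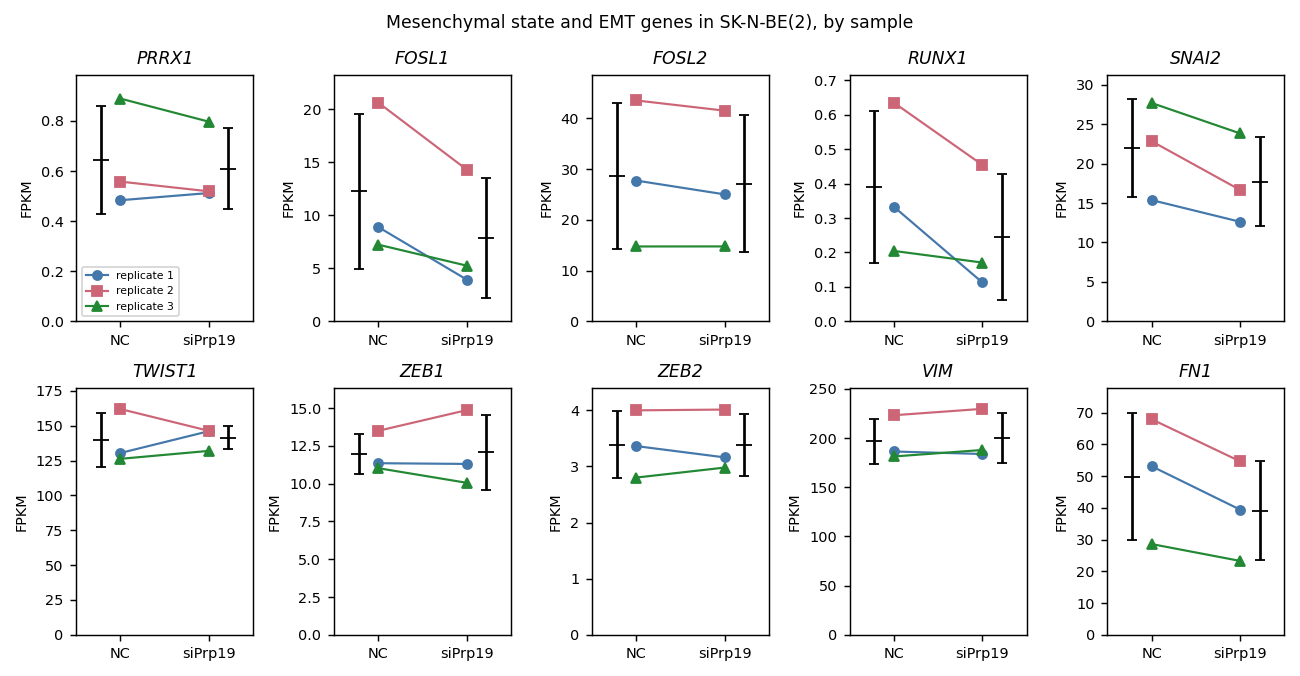
FPKM of the 10 mesenchymal state and EMT genes (vertical axes, each from 0) in NC and siPrp19 samples. Coloured points joined by a line are the samples with the same replicate number, and black bars are the group mean ± SD (n = 3). The NC and siPrp19 samples overlapped for every gene, while for FOSL1, RUNX1, SNAI2 and FN1 all 3 lines run downward.

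In all 3 same-numbered pairs the siPrp19 sample had the lower level of FN1, SNAI2 and FOSL1, by a mean of 0.35, 0.32 and 0.71 on the log2(FPKM + 0.1) scale, and no tested member was higher in 3 of 3. Over all genes tested, 21.3% were lower and 19.2% higher in 3 of 3 pairs, against 3 of 8 and 0 of 8 here. RUNX1, below the level for testing, was also lower in 3 of 3 pairs. VIM, TWIST1, ZEB1 and ZEB2 differed by 0.03 or less on average and in different directions between pairs. In the limma fit without pairing none of the 8 passed an FDR of 0.05 (adjusted p = 0.9999 for each), nor did PRPF19 itself (adjusted p = 0.9999), and none of the 10 had groups that did not overlap, against 5.61% of all genes tested. The smallest exact two-sided permutation p for 3 against 3 samples is 0.10, and the 10 genes gave 0.5 to 1.0.

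The samples could be paired by number, and a limma fit blocked by replicate number narrowed the errors. In this paired limma fit across all genes FN1, SNAI2 and FOSL1 were below an unadjusted p of 0.05 in the lower direction, as were 8.77% of all genes tested, and none of them passed the FDR (adjusted p = 0.190, 0.202 and 0.204). With the block and only the genes that averaged at least 5 FPKM, FN1 passed (adjusted p = 0.0398), where 1.14% of genes were called lower, while FOSL1 (adjusted p = 0.0503) and SNAI2 (adjusted p = 0.0658) did not. With limma voom on the recovered reads and the same block, 4.39% of genes were called lower, and FN1 (adjusted p = 3.2e-05), FOSL1 (adjusted p = 0.000249) and SNAI2 (adjusted p = 0.00287) were among them. PRPF19 was called by the same fit (log2 fold change −1.04, adjusted p = 1.4e-11). Of the fits run, those that called a member all had the block. Without pair 3, whose samples stood apart for DBH, the mean differences within pairs were −0.84 for FOSL1, −0.37 for SNAI2 and −0.37 for FN1. With it they were −0.71, −0.32 and −0.35. Without pair 1 they were −0.49, −0.33 and −0.30, and without pair 2 −0.80, −0.25 and −0.36. FOSL1, SNAI2 and FN1 thus stayed lower with each pair left out, and none passed the FDR in the fits with a pair left out.

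**Figure D2:**
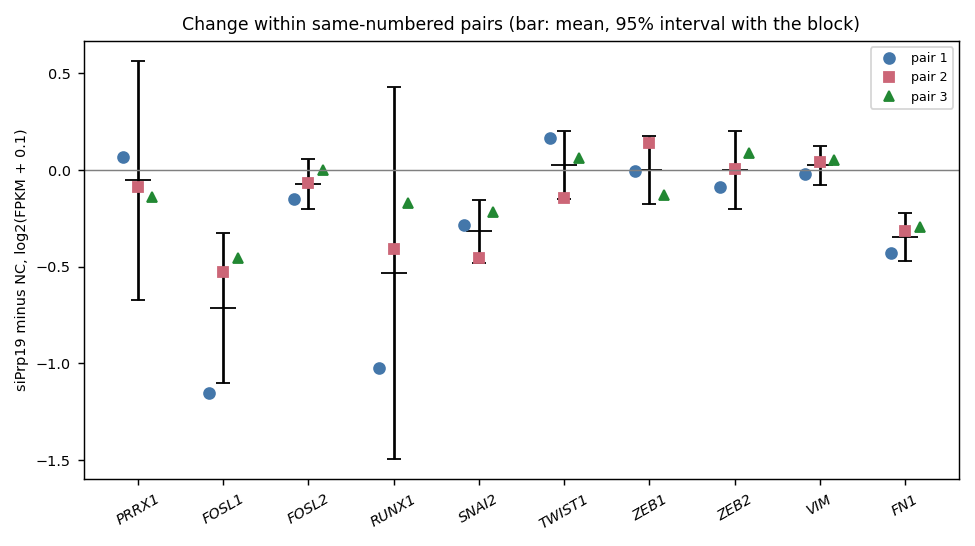
Difference of siPrp19 minus NC in log2(FPKM + 0.1) within each same-numbered pair (coloured points) for the 10 genes. Black bars are the mean of the 3 pairs with its 95% interval from the limma fit with the replicate block (PRRX1 and RUNX1 from the fit with no filter). The intervals of FOSL1, SNAI2 and FN1 lie below 0, and those of the other genes include 0.

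Among the factors that define the mesenchymal state, PRRX1 is a homeobox factor of mesenchymal tissue that can move adrenergic neuroblastoma cells toward the mesenchymal state. PRRX1 (ENSG00000116132, chromosome 1 from 170662728 to 170739419 in GRCh38, plus strand) was at 0.484, 0.558 and 0.889 FPKM in the NC samples and at 0.512, 0.519 and 0.797 FPKM in the siPrp19 samples. The highest sample of each group was replicate 3 and the groups overlapped. It rested on 81 to 163 reads per sample. Within pairs it differed by 0.07, −0.09 and −0.14 on the log2 scale, with a mean of −0.05 and a 95% interval of −0.67 to 0.57 with the replicate block.

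FOSL1 and FOSL2 encode FRA-1 and FRA-2, which bind DNA as AP-1 factors together with JUN proteins. FOSL1 (ENSG00000175592, chromosome 11 from 65892049 to 65900573, minus strand) was at 8.89, 20.6 and 7.23 FPKM in NC and at 3.94, 14.3 and 5.25 FPKM in siPrp19. The 2nd replicate was the highest in both groups, and each siPrp19 sample was below the NC sample of its number. FOSL1 in siPrp19 was 44.3%, 69.4% and 72.6% of its NC partner, and group means were 12.2 ± 7.29 and 7.83 ± 5.64 FPKM (SD, n = 3). The log2 difference was −0.71 with a 95% interval of −2.07 to 0.65 without pairing and −1.10 to −0.32 with the block, and pair 1 gave the largest difference (−1.15). Among all genes tested its log2 difference lay at percentile 1.62.

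FOSL2 (ENSG00000075426, chromosome 2 from 28392448 to 28417312, plus strand) was at 27.7, 43.5 and 14.8 FPKM in NC and at 25.0, 41.5 and 14.8 FPKM in siPrp19. Its 6 values fell into 3 close pairs, one for each replicate number. Within pairs it differed by −0.15, −0.07 and 0.001 on the log2 scale, with a mean of −0.07 and a 95% interval of −0.20 to 0.06 with the block. FOSL1 and FOSL2 thus shared the high 2nd replicate, while 3 of 3 pairs were lower for FOSL1 and 2 of 3 for FOSL2, a difference between the genes that was not tested. The promoter of FOSL2 held the AP-1 letters TGACTCA at +5 (counted from +1 at the start site, with −1 before it), on chr2:28392818-28392877 of GRCh38.p14 (RefSeq, plus strand). It is shown because FOSL1 and FOSL2 are themselves AP-1 subunits, with the match in capitals.

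FOSL2: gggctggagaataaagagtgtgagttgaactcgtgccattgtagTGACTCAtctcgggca

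RUNX1 is a runt domain factor that binds DNA with CBFB. RUNX1 (ENSG00000159216, chromosome 21 from 34787801 to 36004667, minus strand) was at 0.333, 0.634 and 0.205 FPKM in NC and at 0.113, 0.454 and 0.171 FPKM in siPrp19, with 40 to 174 reads per sample. Each siPrp19 sample was below its NC partner, at 34.0%, 71.6% and 83.5% of it, while the groups overlapped. The log2 difference was −0.53 with a standard error of 0.55 without pairing and 0.36 with the block, where it did not pass (adjusted p = 0.731). With voom, the block and no filter, RUNX1 passed (log2 fold change −0.69, adjusted p = 0.0338), as 1.71% of 37521 genes did in the lower direction.

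Of the EMT repressors, SNAI2 encodes SLUG, a zinc finger factor that binds E-boxes and is needed by migrating neural crest cells. SNAI2 (ENSG00000019549) was at 15.4, 22.8 and 27.7 FPKM in NC and at 12.6, 16.7 and 23.8 FPKM in siPrp19. It was the only member besides PRRX1 whose highest samples were those of replicate 3, and each siPrp19 sample was below its NC partner, at 82.1%, 72.9% and 86.1% of it. Group means were 21.95 ± 6.19 and 17.7 ± 5.67 FPKM (SD, n = 3). The log2 difference was −0.32 with a 95% interval of −1.03 to 0.39 without pairing and −0.48 to −0.15 with the block.

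TWIST1 encodes a basic helix-loop-helix factor of the neural crest, often high in MYCN-amplified neuroblastoma. TWIST1 (ENSG00000122691, chromosome 7 from 19020991 to 19117672, minus strand) was at 130.5, 162.0 and 126.3 FPKM in NC and at 146.2, 146.4 and 132.0 FPKM in siPrp19. The pairs differed by 0.16, −0.15 and 0.06 on the log2 scale, with a mean of 0.03 and a 95% interval of −0.15 to 0.20 with the block. TWIST1 varied least between replicate numbers and was the only tested member for which the replicate number was not called (adjusted p = 0.114).

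ZEB1 and ZEB2 are zinc finger and homeodomain repressors of epithelial genes. ZEB1 (ENSG00000148516, chromosome 10 from 31318495 to 31529814, plus strand) was at 11.4, 13.5 and 11.03 FPKM in NC and at 11.3, 14.9 and 10.1 FPKM in siPrp19. ZEB2 (ENSG00000169554, chromosome 2 from 144364364 to 144524583, minus strand) was at 3.36, 3.998 and 2.80 FPKM in NC and at 3.16, 4.01 and 2.98 FPKM in siPrp19. For both genes the 2nd replicate was the highest in both groups. The mean log2 differences were 0.0003 and 0.001, with 95% intervals of −0.18 to 0.18 for ZEB1 and −0.20 to 0.20 for ZEB2 with the block. One start site of ZEB1, the most upstream of the 7 listed, held the E-box letters CAGGTG at −57, on chr10:31318317-31318416 (RefSeq, GRCh38.p14, plus strand). It is shown because the SNAI and ZEB factors bind such E-boxes, with the match in capitals. Another start site of ZEB1 held the same letters at −242, −85 and +34 and the RUNX letters TGTGGT at −246, and a further one held TGTGGT at −249.

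ZEB1: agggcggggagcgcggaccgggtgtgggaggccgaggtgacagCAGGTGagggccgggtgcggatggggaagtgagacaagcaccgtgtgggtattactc

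The products by which the mesenchymal state is recognised were VIM and FN1. VIM encodes vimentin, the intermediate filament of mesenchymal cells. VIM (ENSG00000026025, chromosome 10 from 17228259 to 17237593, plus strand) was at 186.3, 223.2 and 181.2 FPKM in NC and at 183.8, 229.6 and 187.8 FPKM in siPrp19. The 2 groups overlapped throughout, and the 2nd replicate was the highest in both. The pairs differed by −0.02, 0.04 and 0.05 on the log2 scale, and the 95% interval of −0.08 to 0.13 with the block was the narrowest of the 10 genes. VIM was thus as high in siPrp19 as in NC to within that interval.

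FN1 encodes fibronectin, a matrix protein that binds integrins and on which migrating neural crest cells move. FN1 (ENSG00000115414, chromosome 2 from 215360440 to 215436172, minus strand) was at 53.1, 67.9 and 28.6 FPKM in NC and at 39.4, 54.6 and 23.3 FPKM in siPrp19. Each siPrp19 sample was at 74.2%, 80.5% or 81.4% of its NC partner, a narrower range than for FOSL1 or RUNX1. The pairs differed by −0.43, −0.31 and −0.30 on the log2 scale. Group means were 49.8 ± 19.9 and 39.1 ± 15.7 FPKM (SD, n = 3). The groups overlapped, and the replicate numbers differed 2.36-fold. The log2 difference was −0.35 with a 95% interval of −1.33 to 0.64 without pairing and −0.47 to −0.22 with the block.

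The windows before the start sites of VIM and FN1, the effector genes, are shown because FN1 was lower within all pairs and VIM was not. They are printed in the direction of transcription with their matches in capitals. In FN1 (chr2:215436069-215436268, minus strand) the capitals are the cyclic AMP response element TGACGTCA, which begins at −183, and in VIM (chr10:17228121-17228240, plus strand) the RUNX letters TGTGGT, which begin at −96.

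FN1: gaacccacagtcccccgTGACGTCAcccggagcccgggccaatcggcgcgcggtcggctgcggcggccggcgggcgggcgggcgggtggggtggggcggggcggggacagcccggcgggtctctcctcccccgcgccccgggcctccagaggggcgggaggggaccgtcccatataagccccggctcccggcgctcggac

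VIM: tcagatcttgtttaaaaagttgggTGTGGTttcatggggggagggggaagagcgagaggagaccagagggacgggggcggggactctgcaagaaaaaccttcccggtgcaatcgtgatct

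Over all 35116 promoter windows of 300 bases in the table, searched on both strands, TGACTCA was found in 4.95%, TGACGTCA in 1.85%, CAGGTG in 20.6% and TGTGGT in 13.1%. None of the 4 motifs was found in the windows of PRRX1, RUNX1 and ZEB2, and no window was searched for FOSL1, TWIST1 and SNAI2. A match is a description of these letters and not of binding.

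The replicate number was called by the limma F test for 7 of the 8 tested members, beside 49.6% of all genes tested. All tested members but ZEB2 averaged at least 5 FPKM. At that level the F test, fitted separately, called 5620 of 7913 genes, a higher share than over all genes tested. The mean over both groups differed between the lowest and the highest replicate number by 1.52 on the log2 scale for FOSL1 and for FOSL2, by 1.24 for FN1 and by 0.88 for SNAI2. These ranges were at the 94.6th, 94.7th, 91.7th and 82.5th percentile of all genes tested. TWIST1 (0.25), VIM (0.29), ZEB1 (0.42) and ZEB2 (0.46) lay at or below the 50.1st percentile. The median range was 0.67 for the 8 members and 0.46 for all genes tested. The plot of spread against change shows that the 3 members with a difference in every pair were also among the 4 with the widest range between replicate numbers, with FOSL2 as the other.

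**Figure D3:**
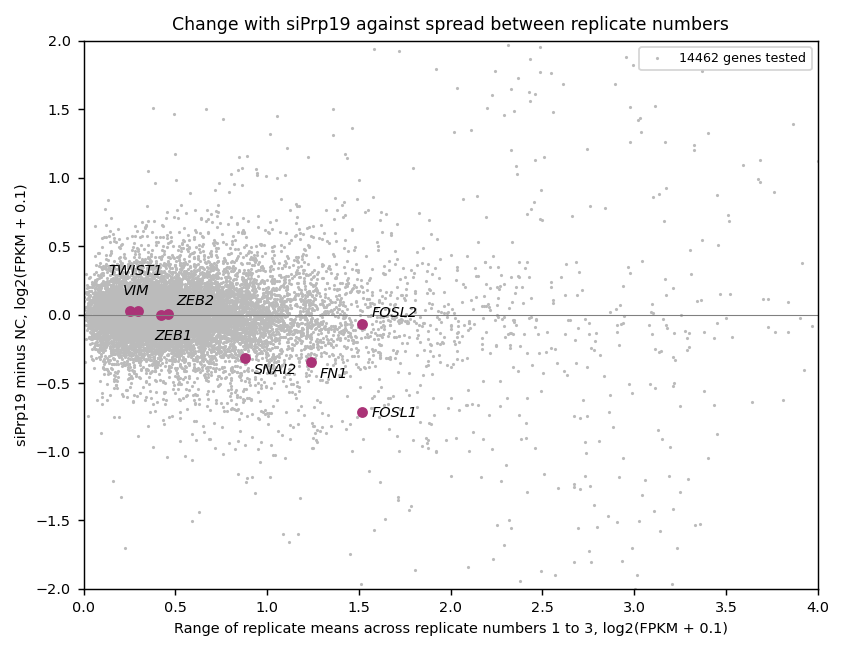
Each grey point is one of the 14462 genes tested, with the range of the means of replicate numbers 1 to 3 on the horizontal axis and the difference siPrp19 minus NC on the vertical axis, both in log2(FPKM + 0.1). The 8 tested members are in purple, and 102 genes lie outside the axes. FOSL1, SNAI2 and FN1 lie below 0 with ranges of 0.88 to 1.52, while TWIST1, VIM, ZEB1 and ZEB2 lie near 0 on the vertical axis with ranges of 0.25 to 0.46.

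Over the 6 samples, FOSL2, ZEB1, ZEB2, VIM and FN1 varied together, with Pearson correlations of log2(FPKM + 0.1) from 0.69 (VIM with FN1) to 0.97 (FOSL2 with ZEB2). FOSL1 and TWIST1 correlated with these 5 genes at 0.75 to 0.85 and 0.69 to 0.81 and with each other at 0.56. The correlations of SNAI2 with the other 7 tested members were lower, from −0.43 (FOSL2) to 0.24 (FOSL1). These are descriptions over 6 samples that share the replicate numbers. The genes most like each member were RBSN, PXDC1 and MFAP1 for FOSL1, OTUD1, RORA and MRGBP for FOSL2, ABHD13 and AP1AR for SNAI2, and ARIH1, CAMSAP2 and ZNF675 for ZEB1, with correlations of 0.992 to 0.9995. For VIM they were OSBP, HIPK1 and ARHGAP32, for FN1 ZIC5, MRPS30 and RPL23, and for ZEB2 AC004492.1, TICAM1 and UAP1L1, with correlations of 0.997 to 0.9998. TWIST1 had the loosest, RNA5SP203, FAM3A and RF00019, at 0.9751 to 0.995.

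The other genes of these pathways gave the setting for the members. None of the genes in any list passed the limma test without pairing, and the counts below are of pairs and of voom with the block, beside which 21.3% of all genes tested were lower in 3 of 3 pairs and 4.39% called lower by voom. The members and lists were chosen with results of these data known.

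Of 20 other transcription factors of the mesenchymal state, 11 were tested, 6 were lower in 3 of 3 pairs (CBFB, SMAD3, NOTCH2, MAFF, WWTR1 and ZFP36L1) and 2 were higher (IRF2 and CREG1). CBFB, the partner of RUNX1, was at 49.4 ± 8.39 FPKM in NC and 38.8 ± 9.33 in siPrp19 (voom adjusted p = 0.000120). WWTR1, which encodes the YAP relative TAZ, was at 1.84 ± 0.0185 and 1.41 ± 0.117 FPKM (adjusted p = 0.0270), and ZFP36L1, an RNA-binding decay factor, at 13.5 ± 3.77 and 11.6 ± 3.86 FPKM (adjusted p = 0.0400). These 3 of 11 were called lower by voom with the block and none higher. AEBP1 (13.4 ± 0.507 and 13.4 ± 3.04 FPKM) and CREG1 (16.2 ± 2.04 and 18.8 ± 3.68) were not called. The median log2 difference of the list was −0.08, that of all genes tested −0.0040.

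Of 10 other EMT factors 5 were tested. TCF4, a basic helix-loop-helix partner of TWIST proteins, was lower in 3 of 3 pairs at 11.8 ± 0.383 FPKM in NC and 9.47 ± 0.904 in siPrp19 (voom adjusted p = 0.000368), and its relative TCF3 was higher in 3 of 3 at 38.4 ± 4.54 and 43.2 ± 3.04 FPKM without being called (adjusted p = 0.0574). SNAI1, the paralog of SNAI2, was at 18.5 ± 1.74 and 18.5 ± 1.32 FPKM, and PRRX2, the paralog of PRRX1, at 92.5 ± 4.70 and 90.7 ± 11.8 FPKM. PRRX2 was thus far above PRRX1 per length in every sample. The replicate number was called for 0 of these 5 genes by the limma F test and for 4 of the 4 tested among 7 other AP-1 subunits.

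Those AP-1 subunits were JUNB (115.7 ± 63.5 FPKM in NC and 101.9 ± 45.4 in siPrp19), JUND (77.6 ± 19.3 and 73.3 ± 13.0), JUN (47.5 ± 15.9 and 44.7 ± 18.4) and FOS (7.55 ± 4.35 and 5.98 ± 3.81). FOS and JUN were lower in 3 of 3 pairs, and of the 4 FOS alone was called by voom with the block (log2 fold change −0.35, adjusted p = 0.0202). The median log2 difference of the 4 was −0.11, and their median range between replicate numbers 1.23.

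Of 25 mesenchymal surface, matrix and cytoskeleton genes 23 were tested, of which 9 were lower in 3 of 3 pairs and 0 higher. Voom with the block called 4 lower, among them NT5E, which encodes the mesenchymal surface protein CD73 (7.72 ± 0.609 FPKM in NC and 5.56 ± 0.646 in siPrp19, log2 fold change −0.47, adjusted p = 0.000324), the hyaluronan receptor CD44 (−0.20, adjusted p = 0.0402) and the actin-binding TAGLN (−0.29, adjusted p = 0.0394). The 4 highest of the list were SPARC (119.0 ± 31.8 and 119.9 ± 28.3 FPKM), the fibronectin receptor chain ITGB1 (52.5 ± 10.1 and 52.2 ± 8.45), LUM (51.8 ± 7.003 and 48.0 ± 6.57) and COL1A1 (41.6 ± 4.96 and 39.1 ± 5.83). None of these 4 was called. The median log2 difference of the list was −0.09.

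The intermediate filaments beside vimentin had a median log2 difference of 0.13. Of 9 genes 7 were tested, 3 were higher in 3 of 3 pairs (19.2% of all genes tested) and 0 lower, and all 3 were neurofilament genes. NEFM was at 95.6 ± 19.4 FPKM in NC and 125.6 ± 9.05 in siPrp19 and was called higher by voom with the block (log2 fold change 0.41, adjusted p = 9.5e-05), as were 2.62% of all genes in that fit, while NEFL (60.2 ± 2.53 and 67.2 ± 1.24) and NEFH (26.7 ± 0.985 and 29.2 ± 0.926) were not. NES (64.4 ± 22.6 and 69.1 ± 18.4 FPKM) and INA (60.5 ± 3.36 and 58.8 ± 5.32) were in different directions between pairs. Among the 13 adrenergic markers 3 were lower and 0 higher in 3 of 3 pairs, and their median log2 difference was 0.02.

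The epithelial genes that the SNAI and ZEB factors repress were low in all 6 samples. Of 18 genes 17 had a mean below 1 FPKM over the samples, and CDH1, which encodes E-cadherin, had 0 to 2 reads per sample in all 6 samples. The 4 highest were EPCAM (1.62 ± 0.243 FPKM in NC and 2.09 ± 0.352 in siPrp19), CLDN4 (0.884 ± 0.268 and 0.970 ± 0.0456), KRT19 (0.800 ± 0.0814 and 0.940 ± 0.460) and CLDN7 (0.459 ± 0.0973 and 0.761 ± 0.203). EPCAM, the 1 gene tested, was higher in 3 of 3 pairs and was not called by voom (log2 fold change 0.38, adjusted p = 0.221). Below the level for testing, KRT8, KRT18, CLDN3, CLDN7 and RAB25 were also higher in 3 of 3 pairs. No gene of the list was lower in 3 of 3. None of those below the level passed the FDR in the blocked limma fit with no filter, and some had few reads (1 to 6 for CLDN3). The share of all genes below that level that were higher in 3 of 3 was not counted. Outside this list and the members, the pair directions of genes below that level are not reported here.

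**Figure D4:**
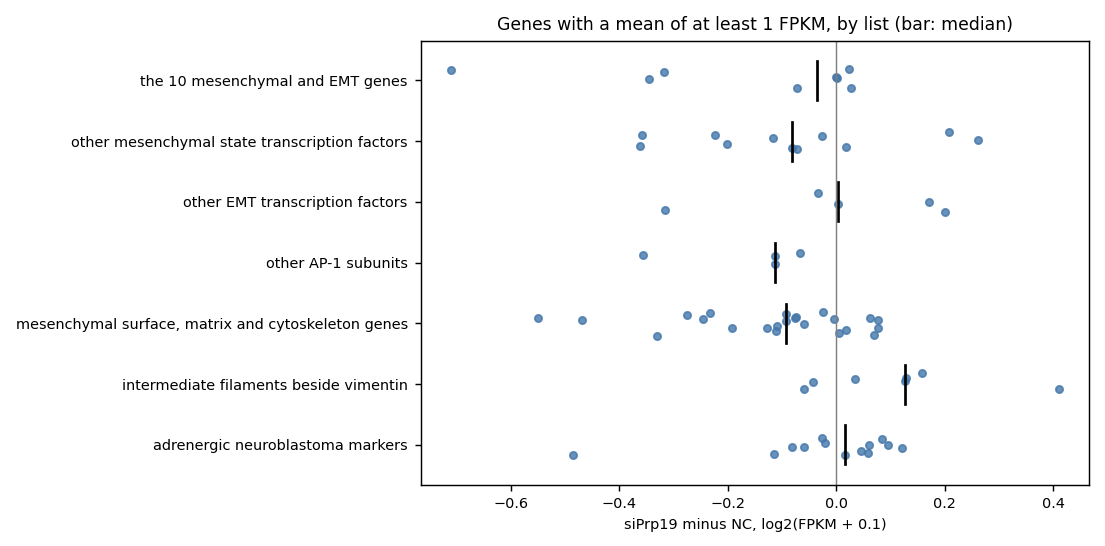
Difference siPrp19 minus NC in log2(FPKM + 0.1) for each tested gene (points) of 7 lists, with the median of each list as a black bar. The medians run from −0.11 for the other AP-1 subunits to 0.13 for the intermediate filaments beside vimentin, and that of the 8 tested members is −0.04.

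The counting of reads at overlapping genes limits some of the levels. Exons of genes on the other strand share 1260 of the 5158 exonic bases of VIM, 1299 of 25058 of ZEB2, 366 of 8650 of ZEB1 and 141 of 2033 of TWIST1, and whether the counting used strand is not given in the sources used here. Without strand, the reads of such a pair cannot be told apart.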

How the data were processed

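RNA was sequenced from 3 NC and 3 siPrp19 samples of SK-N-BE(2). The authors deposited 1 table of FPKM values per sample. HISAT2 2.0.5, featureCounts 1.5.0-p3 and hg38 are named in the submitters' processing notes, and the annotation and strand setting are not given in the sources used here. Identifiers were matched to GENCODE 29, which held 58039 of 58302.

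Log2(FPKM + 0.1) of genes that averaged at least 1 FPKM was tested with limma 3.58.1 in R 4.3.3 (eBayes with trend, two-sided, Benjamini-Hochberg over all 14462 genes). PRRX1 and RUNX1 were tested in a fit with no filter. The main fit had no block, since the methods of the study name none. Replicate numbers in the labels pair the samples: deviations from the group means correlated at 0.38, 0.57 and 0.64 within numbers and −0.53 to 0.05 across them. Reads were recovered as FPKM times exon length over the worth of 1 read and came out whole within 0.05 in all 6 samples for 35969 of 37521 genes with a value above 0 (95.9%). Among the genes that did not were the members SNAI2 and ZEB2 and, of the lists, CD44, CREG1 and DBH. Their reads are approximate, and the voom results of SNAI2 and CD44 rest on such reads. The recovered reads were used for depth, for reads per gene and for voom. Library sizes given to voom were those that the deposited scaling implies. The limma fits with and without the block and the F test were tested on simulated log2 values. The simulated treatment differences were larger than the mean differences of the members, and the voom fit was not tested in this way. Permutation tests used scipy 1.17.1 under Python 3.11.15. Promoter windows are from RefSeq.

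The members and lists were chosen with earlier results of these data known. Named were all members, PRPF19, the 4 genes of highest mean FPKM in each other list and any gene passing an FDR of 0.05, the 3 tested genes most correlated with each tested member, and, after their values were seen, DBH, COL1A2, CDH1, SOX10, FOXD3, NEFH and the genes lower or higher in 3 of 3 pairs. Some genes that this rule names are not reported here. Alternatives were a pseudocount of 1, no filter, a minimum mean of 5 FPKM, TPM, quantile normalization, the replicate block, voom, robust eBayes without trend, and leaving out each sample or pair.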

Additional observations from a re-analysis of the deposited data

How the results depend on the processing

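The count of 0 genes called for siPrp19 against NC stayed at 0 with a pseudocount of 1, no filter, a mean of at least 5 FPKM, TPM, quantile normalization, the replicate block alone (2265 at an unadjusted p under 0.05) and each sample (0 to 0) or each pair left out. It was 1 with eBayes without trend and robust, 124 with the replicate block and a mean of at least 5 FPKM, and 1012 with the replicate block and voom. The 7175 genes called for the replicate number became 4214 with no filter, and 2542 (without replicate 3), 3546 (without replicate 2) and 6336 (without replicate 1) with a replicate number left out. The cause was not tested, except that more genes or fewer samples were fitted.

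Of the members' values under the alternatives, 148 kept direction and side of the threshold, 5 newly passed it (FOSL1, SNAI2, FN1 and RUNX1 with voom and FN1 with at least 5 FPKM, all in paired fits) and 19 changed sign. With each sample left out without pairing, log2 differences ran from −1.25 to −0.26 for FOSL1, −0.93 to −0.19 for RUNX1, −0.55 to −0.10 for SNAI2 and −0.70 to −0.01 for FN1. They ran from −0.23 to 0.17 for PRRX1, −0.48 to 0.30 for FOSL2, −0.0409 to 0.14 for TWIST1, −0.16 to 0.12 for ZEB1, −0.12 to 0.13 for ZEB2 and −0.0775 to 0.12 for VIM. In the paired fit, leaving out pair 1 gave −0.0415 for TWIST1, pair 2 gave −0.0687 for ZEB1 and −0.0003 for ZEB2, and pair 3 gave −0.0408 for ZEB2. The median of the mesenchymal surface, matrix and cytoskeleton genes was −0.0748 with a pseudocount of 1.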
